A study of Mus musculus with 2 samples.

Results

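The genes described here are 10 chaperone genes of the mouse: Hspa1a, Hspa1b, Dnajb1, Hsph1, Hspa8, Hsp90aa1, Hsp90ab1, Hspa5, Hspb1 and Cryab. They are a list of names, drawn up with earlier results of these data known though no measured value enters the rule, and all 10 were found among the 31053 genes of the deposited matrices. Their RNA was followed across oligodendrocyte precursor cells (OPCs), newly formed oligodendrocytes (NFOs) and oligodendrocytes of the optic nerve, with and without injury.

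The study profiled single cells from the injury site 2 weeks after optic nerve crush (ONC), and from uninjured nerves, to learn how the oligodendrocyte lineage differs there. The injured library pooled 5 nerves of mice crushed at 8 weeks of age and collected at 10 weeks, and the uninjured library pooled 5 nerves of 10-week-old mice. All mice were Wildtype animals of the 129S1/SvlmJ strain, with males and females pooled, and no transgene or drug entered either group. Both samples carry the same labelled age, 56 days, and the same labelled time after crush. The title and the condition given in the deposited matrices, control or crush, mark which one was uninjured.

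Each condition is 1 library, so cells are not replicates and no difference between the libraries has a replicate check. The values are unique molecular identifiers (UMIs, 1 per captured RNA molecule) summed over the barcodes of a type, divided by all UMIs of that type and multiplied by 1000000 (CPM). Every interval is a 95% interval that covers counting error only. A gene was counted as past 2-fold only where it had at least 50 UMIs over both arms, and ratios from fewer UMIs are given as values with their intervals. Fewer RNA molecules per cell of a type and a different mix of cells within the type cannot be told apart in such sums.

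The uninjured library held 58 OPCs, 44 NFOs and 857 oligodendrocytes, and the injured library 17, 100 and 293. The libraries shared 0 barcode sequences. The depth of a typical oligodendrocyte barcode differed, with a median of 3060 UMIs uninjured and 1268 injured, and 45.4% of injured against 5.60% of uninjured oligodendrocyte barcodes held Malat1, a nuclear RNA, at under 0.5% of their UMIs. The OPCs and oligodendrocytes carried their markers: the 8 OPC markers summed to 10745 and 9575 CPM in uninjured and injured OPCs against 26.8 and 15.2 CPM in oligodendrocytes, and the 10 mature oligodendrocyte markers to 69753 and 60659 CPM in oligodendrocytes. The NFO type was mixed by this measure, with OPC markers at 6119 CPM and the 8 NFO markers at 6024 CPM in the uninjured library and 4076 and 11971 CPM in the injured one, so its make-up differed between the libraries. All 10 macrophage and microglia markers were found in injured oligodendrocytes and their summed level was 316 CPM, against 20.003 CPM uninjured. It was 767 against 21.2 CPM in NFOs and 247 against 29.2 CPM in OPCs. The part of this foreign RNA, of depth and of Malat1 in the results was not tested except where values within a depth range are given.

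Chaperones hold unfolded proteins and help them fold, and many are made in larger amounts after heat or other protein damage, when heat shock factor binds heat shock elements in their promoters. The HSP70 proteins work in a cycle with J proteins such as Dnajb1, which bring clients and trigger ATP hydrolysis, and with exchange factors such as Hsph1, while HSP90 takes over late-folding clients such as kinases and receptors. Hspa5 (BiP) is the HSP70 of the endoplasmic reticulum and a target of the unfolded protein response, and Cryab, alpha B-crystallin, is a small heat shock protein known for its abundance in oligodendrocytes.

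The promoters of Hspa1a and Hspa1b, neighbouring genes of inducible HSP70, are shown side by side. Short reads of such like genes may be assigned to the wrong one. The bases before the start are not part of the RNA, and the likeness of the transcribed parts was not measured. Hspa1a lies at chr17:34969190-34972156 and Hspa1b at chr17:34956436-34959238, both on the minus strand (GENCODE vM21, GRCm38). RefSeq promoter sequences of the GRCm38.p6 build were found for 6 of the 10 genes, and the stretches below are the 150 bases before the annotated start of each, at chr17:34972157-34972306 and chr17:34959239-34959388, read on the gene's strand. The capitals mark a heat shock element, searched as GAANNTTC or TTCNNGAA, each of which reads the same on both strands.
Hspa1a: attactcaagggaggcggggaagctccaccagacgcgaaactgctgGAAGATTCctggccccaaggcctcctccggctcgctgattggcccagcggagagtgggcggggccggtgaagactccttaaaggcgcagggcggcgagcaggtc
Hspa1b: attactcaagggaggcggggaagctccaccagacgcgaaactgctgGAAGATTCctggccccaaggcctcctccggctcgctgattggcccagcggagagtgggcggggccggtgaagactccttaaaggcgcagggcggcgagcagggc
Over the 250 bases before the start, 247 bases (98.8%) were the same without gaps. Within the stretches shown the difference is T2G, with positions counted upstream from the start, the Hspa1a base first and the Hspa1b base last. The element lies from 104 to 97 bases upstream of the start in both.

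Other promoters are shown for the elements they hold. Hspb1 (chr5:135887919-135889563, plus strand) has 2 matches to GAANNTTC in the 150 bases before its start, chr5:135887769-135887918. Hsph1 (chr5:149614287-149636376, minus strand) has a match to TTCNNGAA in chr5:149636352-149636379. Hspa5 (chr2:34771970-34777547, plus strand) has a match to the ER stress element, searched on both strands as CCAAT and CCACG with any 9 bases between them, in chr2:34772020-34772048, and the capitals mark it. The RefSeq starts of Hspa5 and Hsph1 lie downstream of the GENCODE ones. The Hspa5 stretch therefore lies inside the gene span given, and most of the Hsph1 stretch does. Counted from the RefSeq start, the Hspa5 match lies from 65 to 47 bases upstream. The Hsph1 match lies from 54 to 47 or from 33 to 26 bases upstream, by the entry used.
Hspb1: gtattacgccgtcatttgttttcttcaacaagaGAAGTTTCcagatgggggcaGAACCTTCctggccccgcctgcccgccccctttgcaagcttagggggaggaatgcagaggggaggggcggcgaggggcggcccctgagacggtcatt
Hsph1: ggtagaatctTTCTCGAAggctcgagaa
Hspa5: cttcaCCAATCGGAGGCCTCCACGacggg
Among all 32851 promoter entries, 12.8% held a heat shock element of either order in the 250 bases before the start, and 0.113% held the ER stress element. Both Dnajb1 entries had no match to either element in this window. A match is a description of the letters and not a measured binding site.

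None of the genes with at least 50 UMIs was 2-fold higher or 2-fold lower in the injured library in any type. Of the 8591 genes tested in oligodendrocytes, 5.98% were at least 2-fold higher and 4.06% at least 2-fold lower, and of the 9 chaperones tested there 0 were. In oligodendrocytes of matched depth and Malat1 content, described further on, 5 chaperones were at least 2-fold lower: Hspa1a at 0.413 (0.0831 to 1.26, from 3 injured UMIs), Hspa8, Hsp90aa1, Hsp90ab1 and Cryab. Hsph1 and Hspa5 also reached 50 UMIs there and stood at 1.63 (0.665 to 3.47) and 1.43 (1.06 to 1.90). Of the 4639 genes tested at matched depth, 16.9% were at least 2-fold lower. In NFOs, 13.3% of 1695 genes were 2-fold higher and 4.01% lower, with 5 chaperones tested. In OPCs, 10.3% of 993 genes were higher and 6.45% lower, with 4 chaperones tested. The median log2 ratio of all genes tested was 0.24 in OPCs, 0.20 in NFOs and 0.05 in oligodendrocytes, so changes in the 2 smaller types are also given relative to that median.

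**Figure D1:**
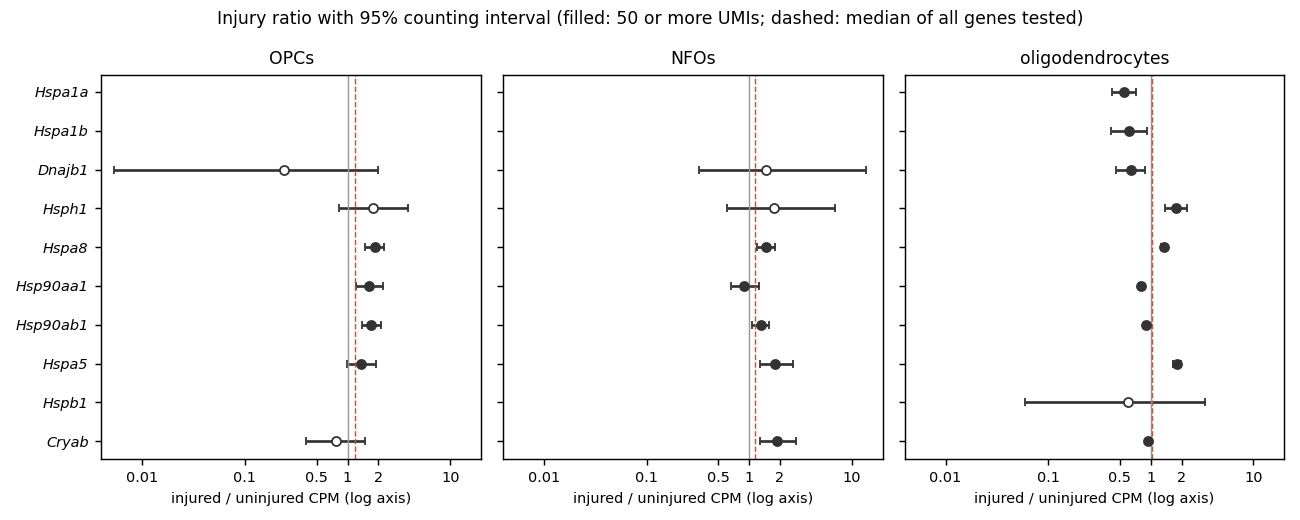
Ratio of injured to uninjured CPM on a log axis for each gene (rows) in OPCs, NFOs and oligodendrocytes (panels), with 95% counting intervals; filled points rest on at least 50 UMIs, the dashed line is the median of all genes tested, and genes at 0 in an arm are left out. In oligodendrocytes Hspa1a, Hspa1b and Dnajb1 sit left of 1 and Hsph1, Hspa8 and Hspa5 right of it, all within 2-fold.

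Inducible HSP70 was rare and had lower summed levels in injured oligodendrocytes. Hspa1a stood at 35.0 CPM (6 UMIs), 0 and 54.5 CPM (226 UMIs) in uninjured OPCs, NFOs and oligodendrocytes, and at 0, 42.6 CPM (15 UMIs) and 30.0 CPM (69 UMIs) in the injured types. The 2 oligodendrocyte intervals, 47.6 to 62.0 CPM and 23.3 to 37.9 CPM, did not overlap, and the ratio was 0.550 (0.414 to 0.723). The counts of 0 allow up to 25.5 CPM in injured OPCs and 31.9 CPM in uninjured NFOs at 3 UMIs, so no difference in these types was detectable at this depth. The 15 UMIs of the injured NFOs all came from 1 of 100 barcodes, which held 29344 UMIs in total. The same RNA was found in 67 of 857 uninjured oligodendrocytes (7.82%) and 23 of 293 injured ones (7.85%), and after barcodes were thinned to 500 UMIs, which 838 of 857 and 293 of 293 could give, in 2.15% and 0.341%. No cell type known to lack these genes was analysed here, so the share that free RNA gives was not measured. In uninjured oligodendrocytes the 10 richest barcodes held 50.9% of all Hspa1a UMIs and the richest 39 UMIs. In injured oligodendrocytes the 10 richest held 76.8%. Most oligodendrocytes thus showed none and a few showed many, and the intervals do not cover such crowding.

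Hspa1b, the neighbour of Hspa1a with a near-identical promoter, followed at lower values. It stood at 5.84 CPM (1 UMI), 0 and 25.3 CPM (105 UMIs) in uninjured OPCs, NFOs and oligodendrocytes, and at 0, 0 and 15.6 CPM (36 UMIs) in the injured types. The oligodendrocyte ratio was 0.618 (0.411 to 0.910), with intervals of 20.7 to 30.6 CPM and 10.95 to 21.6 CPM that overlap at their edges. At least 1 UMI of Hspa1b was seen in 5.02% of uninjured and 4.78% of injured oligodendrocytes. The 10 richest barcodes held 61.9% and 88.9% of its UMIs, which the intervals do not cover. In uninjured oligodendrocytes 15 of the 67 barcodes with Hspa1a also held Hspa1b (22.4%), against 3.54% of the barcodes without it, and in injured ones 7 of 23 (30.4%) against 2.59%. Barcodes with Hspa1a were deeper, with a median of 7267 against 2773.5 UMIs uninjured and 26569 against 1045.5 UMIs injured. A count given to either gene may belong to the other, and how often this occurred was not measured.

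Dnajb1, the J protein that partners inducible HSP70, also had a lower summed level in injured oligodendrocytes. Its levels were 35.0, 21.2 and 37.4 CPM in uninjured OPCs, NFOs and oligodendrocytes and 8.50, 31.3 and 23.9 CPM in the injured types. The oligodendrocyte ratio was 0.640 (0.461 to 0.875) from 155 and 55 UMIs. OPCs and NFOs rest on 1 to 11 UMIs per library, and their ratios, 0.243 (0.00528 to 2.00) and 1.47 (0.321 to 13.7), were not told apart from 1 at this depth.

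Hsph1, the exchange factor of HSP70, was higher in the injured library. It stood at 81.7, 42.5 and 33.0 CPM in uninjured OPCs, NFOs and oligodendrocytes and at 145, 73.9 and 58.2 CPM in the injured types, so each injured value was above its uninjured one. The ratio was 1.76 (1.38 to 2.25) in oligodendrocytes, from 137 and 134 UMIs. The ratios of 1.77 (0.821 to 3.88) in OPCs and 1.74 (0.603 to 6.86) in NFOs rest on 17 against 14 and 26 against 4 UMIs and span 1. At least 1 UMI of Hsph1 was seen in 12.8% of uninjured oligodendrocytes against 25.3% of injured ones, but after thinning to 500 UMIs in 2.03% (17 barcodes) against 0.683% (2 barcodes), so no order was read from these shares.

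Hspa8, the constitutive HSP70 that also strips clathrin from vesicles, had more UMIs than any gene above in every type. Its levels were 911 CPM (773 to 1065) in uninjured OPCs, 1169 CPM (960 to 1408) in NFOs and 982 CPM (952 to 1013) in oligodendrocytes, and 1675 CPM (1449 to 1926), 1694 CPM (1561 to 1836) and 1306 CPM (1260 to 1354) in the injured types. All injured intervals lay above those of the same uninjured type. The ratios were 1.84 (1.48 to 2.28) in OPCs, 1.45 (1.18 to 1.79) in NFOs and 1.33 (1.27 to 1.39) in oligodendrocytes. Relative to the median of all genes the log2 ratios were 0.64, 0.33 and 0.36. The direction in NFOs and oligodendrocytes changed with the weight of deep barcodes: the mean normalized expression (NE, the authors' natural log scale) over barcodes, which weights each barcode equally, was 2.08 injured against 2.22 uninjured in NFOs and 1.56 against 1.59 in oligodendrocytes. The log2 ratio was -0.37 in oligodendrocytes under 8000 UMIs and -1.02 at matched depth, and -0.087 in NFOs thinned to 500 UMIs. In OPCs a single injured barcode held 59 of the 197 UMIs.

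The cytosolic HSP90 genes had lower summed levels in injured oligodendrocytes and higher ones in injured OPCs. Hsp90aa1, the stress-responsive form, stood at 502, 584 and 1593 CPM in uninjured OPCs, NFOs and oligodendrocytes and at 816, 526 and 1286 CPM in the injured types. Its ratios were 1.63 (1.203 to 2.20), 0.900 (0.663 to 1.24) and 0.807 (0.773 to 0.843). Hsp90ab1, the constitutive form, stood at 905, 1498 and 1941 CPM uninjured and 1548, 1933 and 1733 CPM injured. Its ratios were 1.71 (1.37 to 2.13), 1.29 (1.07 to 1.56) and 0.893 (0.860 to 0.928), and the NFO interval holds the median ratio of all genes in NFOs, 1.15. These opposite directions between OPCs and oligodendrocytes were not tested, and the injured OPCs are 17 barcodes.

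Hspa5, the ER HSP70, had higher summed levels in injured NFOs and oligodendrocytes. Its levels were 467, 372 and 232 CPM in uninjured OPCs, NFOs and oligodendrocytes and 638, 671 and 416 CPM in the injured types, higher in the injured library each time. The ratios were 1.37 (0.983 to 1.90) in OPCs, 1.80 (1.26 to 2.65) in NFOs and 1.79 (1.64 to 1.96) in oligodendrocytes. The OPC interval spans 1. With barcodes weighted equally the difference in oligodendrocytes nearly vanished, at 248 against 228 CPM as a mean over barcodes and a mean NE of 0.737 against 0.743. The log2 ratio was -0.024 in oligodendrocytes under 8000 UMIs and -0.49 in NFOs thinned to 500 UMIs. The richest injured oligodendrocyte held 48 of 957 UMIs, and the 10 richest 30.6%.

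The small heat shock proteins differed from each other. Cryab stood at 175, 308 and 1722 CPM in uninjured OPCs, NFOs and oligodendrocytes and at 136, 580 and 1625 CPM in the injured types. Its ratios were 0.777 (0.396 to 1.47), 1.88 (1.27 to 2.88) and 0.944 (0.907 to 0.982). Hspb1 was near 0: 6 UMIs in all uninjured oligodendrocytes, 2 in injured ones, 0 in both groups of OPCs and in uninjured NFOs, which allows up to 17.5, 25.5 and 31.9 CPM at 3 UMIs. The 7 UMIs of injured NFOs came from a single barcode.

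**Figure D2:**
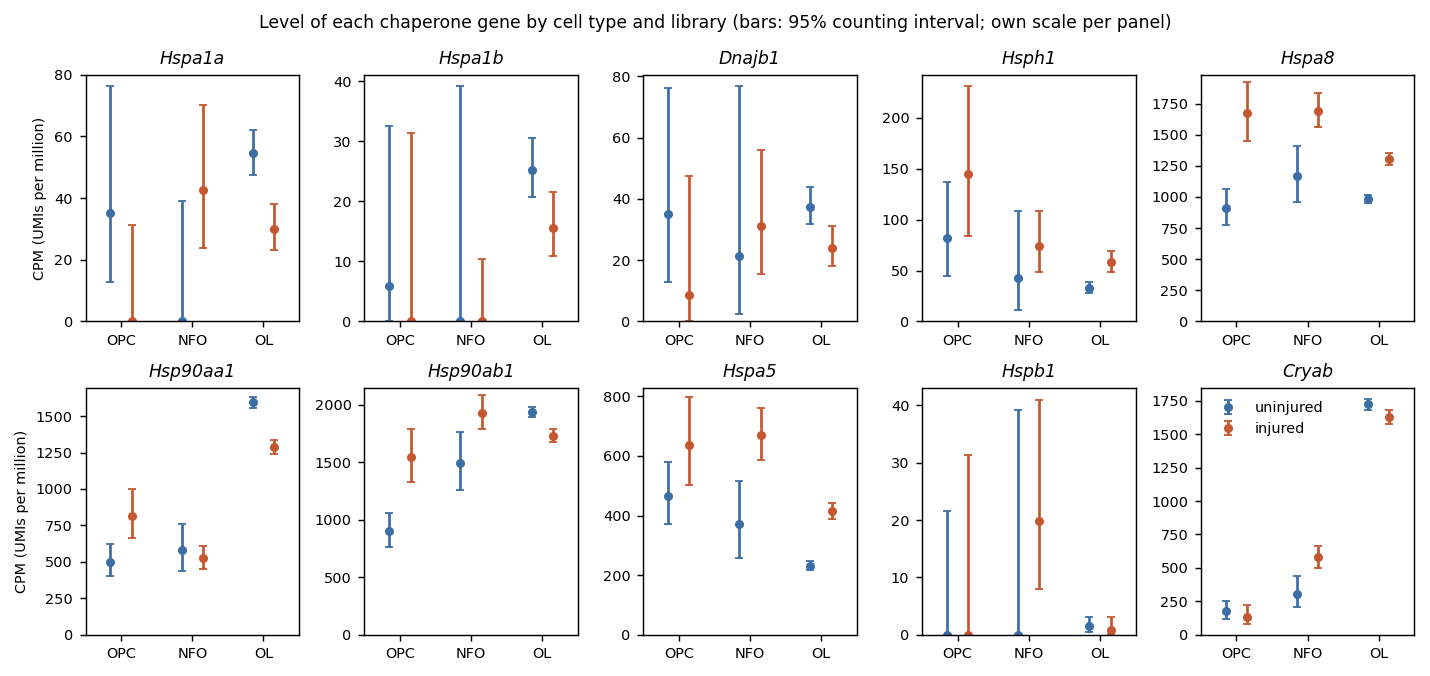
Level of each gene in CPM, from 0, in OPCs, NFOs and oligodendrocytes (OL) of the uninjured (blue) and injured (orange) library, with 95% counting intervals and a scale of its own in each panel. Between uninjured OPCs and oligodendrocytes Cryab goes from 175 to 1722 CPM and Hspa5 from 467 to 232 CPM, and the intervals of Hspa1a, Hspa1b, Dnajb1 and Hspb1 are wide in OPCs and NFOs.

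Between the types, Cryab and both HSP90 genes were higher in oligodendrocytes than in OPCs of the uninjured library. Of 7806 genes tested there, 17.5% were at least 2-fold higher in oligodendrocytes than in OPCs and 18.6% at least 2-fold lower. Of the 9 chaperones tested, Hspa1b, Hsp90aa1, Hsp90ab1 and Cryab were 2-fold higher and Hsph1 and Hspa5 2-fold lower. Cryab was 9.83-fold higher (6.88 to 14.6), Hsp90aa1 3.17-fold (2.57 to 3.97) and Hsp90ab1 2.15-fold (1.83 to 2.53). The Hspa1b ratio of 4.34 rests on 1 UMI in OPCs, and its interval of 0.761 to 173 spans 1. Hsph1 stood at a ratio of 0.404 (0.233 to 0.759) and Hspa5 at 0.497 (0.395 to 0.632), and Hspa8 did not differ beyond its interval, at 1.08 (0.919 to 1.27). All of these ratios share the same OPC library, and the median gene stood at a log2 ratio of -0.12.

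In the injured library the difference between oligodendrocytes and OPCs was 11.9-fold (7.34 to 20.9) for Cryab and 1.58-fold (1.29 to 1.95) for Hsp90aa1, and Hsp90ab1 stood at 1.12 (0.965 to 1.31). Of 6276 genes 20% were 2-fold higher in oligodendrocytes and 18.4% lower. Of the 8 chaperones tested, Cryab and Dnajb1 were 2-fold higher, the latter from 1 UMI in OPCs with an interval of 0.484 to 113, and Hsph1 was 2-fold lower at 0.403 (0.242 to 0.712). Hspa8 at 0.780 (0.675 to 0.905) and Hspa5 at 0.652 (0.515 to 0.836) were lower in oligodendrocytes by less than 2-fold.

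Against NFOs, Cryab and Hsp90aa1 were at least 2-fold higher in oligodendrocytes of both libraries. In the uninjured library 16% of 7651 genes were 2-fold higher in oligodendrocytes and 20.4% lower, and of the 9 chaperones tested Cryab at 5.59 (3.89 to 8.35) and Hsp90aa1 at 2.73 (2.09 to 3.62) were 2-fold higher and 0 were lower. In the injured library 19.4% of 6563 genes were higher and 13.5% lower, and of 8 chaperones tested Cryab at 2.80 (2.43 to 3.24) and Hsp90aa1 at 2.45 (2.11 to 2.85) were 2-fold higher and 0 were lower. In the injured library 0 members were counted as 2-fold higher in barcodes under 8000 UMIs or thinned to 500 UMIs, where the share of all genes was not counted. Hspa5 was lower in oligodendrocytes than in NFOs by a like ratio in both, 0.624 (0.446 to 0.901) and 0.620 (0.537 to 0.718). The median log2 ratio of all genes was -0.20 uninjured and 0.00265 injured.

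The order of the 6 groups differed from gene to gene. Cryab was highest in uninjured oligodendrocytes, then injured oligodendrocytes, injured NFOs and uninjured NFOs, each step beyond the counting intervals, and the uninjured NFOs and both groups of OPCs overlapped in turn. For Hsp90aa1 the uninjured and injured oligodendrocytes led, again beyond the intervals, and of the 4 other groups each overlapped its neighbour. Hspa8 led in injured NFOs and OPCs, which overlapped, and Hspa5 had uninjured oligodendrocytes lowest, below uninjured NFOs beyond the intervals. In Hspa1a, Hspa1b, Dnajb1 and Hsph1 each group overlapped its neighbour.

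Because the libraries differed in depth, oligodendrocytes were also compared within ranges of UMIs per barcode, and the differences between ranges were not tested. In barcodes of at least 8000 UMIs (203 uninjured with a median of 11054 UMIs, 84 injured with a median of 22473) Hspa5 was 212 and 440 CPM, a ratio of 2.07 (1.85 to 2.31), and Hsph1 29.9 and 59.5 CPM, a ratio of 1.99 (1.47 to 2.70). Hspa8 stood at 1131 and 1413 CPM, a ratio of 1.25 (1.19 to 1.32). Lower in these deep injured barcodes were Hspa1a at 0.50 (0.358 to 0.689), Dnajb1 at 0.528 (0.374 to 0.737), Hsp90aa1 at 0.803 (0.764 to 0.843), Hsp90ab1 at 0.850 (0.814 to 0.887) and Cryab at 0.814 (0.779 to 0.850). The macrophage markers summed to 99.9 CPM in the injured and 16.4 CPM in the uninjured deep barcodes, the lowest injured sum of the 5 depth ranges.

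Between 4000 and 8000 UMIs (133 uninjured and 17 injured barcodes) the HSP90 genes, Hspa8 and Cryab were lower in the injured library and Hspa5 higher. Hspa8 stood at 983 and 498 CPM, a ratio of 0.506 (0.363 to 0.689), which is the opposite direction from the deep barcodes. Hsp90aa1 was 1792 and 891 CPM (ratio 0.497), Hsp90ab1 1928 and 822 CPM (ratio 0.426), and Cryab 1554 and 683 CPM (ratio 0.440). Hspa5 was 261 and 509 CPM, a ratio of 1.95 (1.37 to 2.72). Among all 2892 genes with 50 UMIs in this range 19% were at least 2-fold lower, and the 10 mature oligodendrocyte markers summed to 67338 CPM uninjured and 43080 CPM injured.

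Between 2000 and 4000 UMIs (219 uninjured and 28 injured barcodes) every one of the 5 abundant genes had the lower value in the injured library. Hspa5 was 290 and 171 CPM, a ratio of 0.588 (0.315 to 1.01), and Hspa8 673 and 537 CPM, a ratio of 0.797 (0.570 to 1.09), and both intervals span 1, as does that of Cryab at 0.914 (0.694 to 1.19). Hsp90aa1 stood at 0.507 (0.379 to 0.667) and Hsp90ab1 at 0.608 (0.478 to 0.764).

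In barcodes of under 1000 UMIs (157 uninjured and 133 injured) the directions changed again. Hsp90ab1 stood at 866 CPM uninjured and 1883 CPM injured, a ratio of 2.174 (1.68 to 2.82), Hspa8 at 410 and 679 CPM, a ratio of 1.65 (1.11 to 2.49), and Cryab at 702 and 1051 CPM, a ratio of 1.497 (1.10 to 2.05). Hspa5 was 137 and 131 CPM. Of 522 genes tested under 1000 UMIs, 32.2% were at least 2-fold higher in the injured library and 37% at least 2-fold lower. Shifts of this size were therefore not particular to the chaperones. Between 1000 and 2000 UMIs (145 and 31 barcodes) Cryab was 758 and 1302 CPM, a ratio of 1.72 (1.24 to 2.35). Hspa1a was 66.7 and 241 CPM there from 14 and 10 UMIs, a ratio of 3.62 (1.44 to 8.75). Those UMIs lay in only 3.45% of the uninjured and 6.45% of the injured barcodes. The interval does not cover such crowding, so no direction was read from this Hspa1a ratio. Of 736 genes tested between 1000 and 2000 UMIs, 15.5% were at least 2-fold higher in the injured library and 30.3% at least 2-fold lower. The median barcode of under 1000 UMIs held Malat1 at 2.86% of UMIs uninjured and 0.228% injured, and the macrophage markers summed to 100.3 and 3919 CPM. Which of these quantities the chaperone values follow was not tested.

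**Figure D3:**
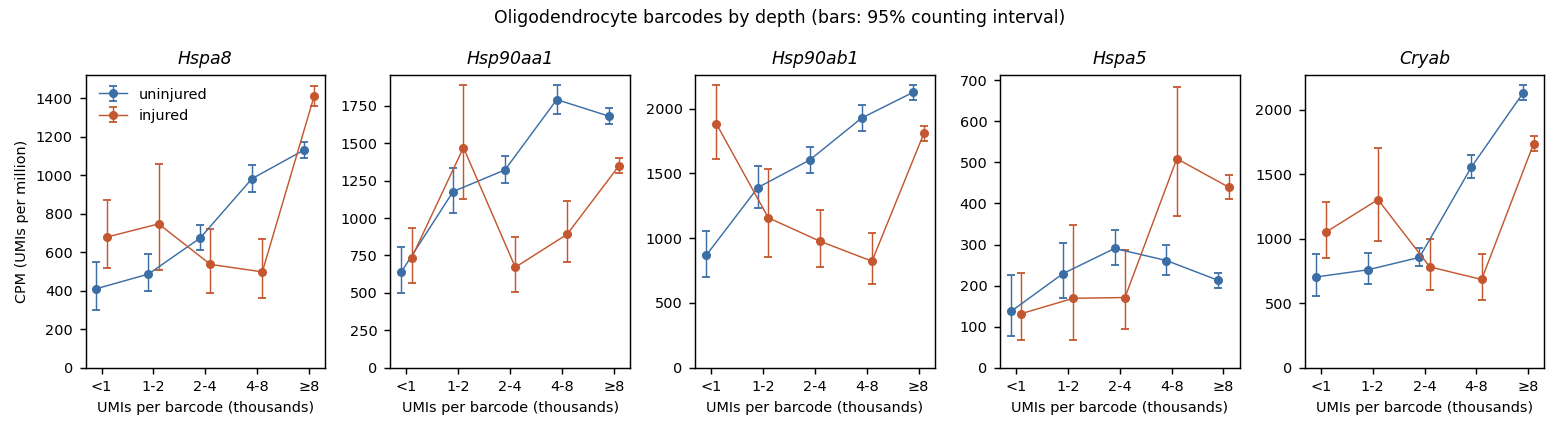
CPM of Hspa8, Hsp90aa1, Hsp90ab1, Hspa5 and Cryab in oligodendrocyte barcodes by UMIs per barcode, labelled in units of 1000, for the uninjured (blue) and injured (orange) library, with 95% counting intervals. The injured library lies below the uninjured one between 4000 and 8000 UMIs for all but Hspa5, and Hspa8 crosses to 1413 against 1131 CPM at 8000 UMIs or more.

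To compare like barcodes, oligodendrocytes of 2000 to 8000 UMIs with Malat1 at 0.5% or more were taken from both libraries, 340 uninjured with a median of 3520.5 UMIs and 34 injured with a median of 3971.5, a choice made after seeing the data. Hspa8 was 830 CPM uninjured and 410 CPM injured, a ratio of 0.494 (0.372 to 0.645). Hsp90aa1 stood at 0.443, Hsp90ab1 at 0.409 and Cryab at 0.407, while Hspa5 was higher, at 1.43 (1.06 to 1.90), although its ratio over all barcodes was 0.588 between 2000 and 4000 UMIs and 1.95 between 4000 and 8000. In this range 16.9% of 4639 genes were at least 2-fold lower. The injured barcodes also held fewer mature oligodendrocyte marker UMIs, 36439 against 60795 CPM, and more macrophage marker UMIs, 655 against 19.2 CPM.

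Within the injured oligodendrocytes, barcodes poor in Malat1 held little Hspa5. In the 133 barcodes under 0.5% Malat1 (median 774 UMIs) Hspa5 was 109 CPM, against 434 CPM in the 160 others (median 9803.5 UMIs), a ratio of 0.252 (0.137 to 0.425). Hspa8 stood at 0.602 (0.489 to 0.732) and Hsp90aa1 at 0.704 (0.581 to 0.847), whereas Hsp90ab1 was 1709 and 1735 CPM, a ratio of 0.985 (0.856 to 1.13), and Cryab 1412 and 1637 CPM, a ratio of 0.863 (0.739 to 1.002). Taking the barcodes at or above 0.5% Malat1 alone, the injured-to-uninjured ratios were 1.86 (1.70 to 2.04) for Hspa5, 1.37 (1.302 to 1.43) for Hspa8 and 0.567 (0.426 to 0.747) for Hspa1a. Cryab stood at 0.961 (0.922 to 1.0005), an interval that spans 1. In the barcodes under 0.5% (48 uninjured and 133 injured) the ratios were 0.696 (0.294 to 1.70) for Hspa5, 0.663 (0.493 to 0.894) for Hspa8 and 0.513 (0.417 to 0.632) for Cryab. Hspa1a had 1 UMI in each library there.

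In NFOs, the higher Hspa8, Hspa5 and Cryab of the injured library were seen in the deeper barcodes. Under 2000 UMIs (30 uninjured and 69 injured barcodes) Hspa8 was 1639 and 1677 CPM, Hspa5 376 and 313 CPM, and Cryab 512 and 426 CPM, and each ratio spans 1. At 2000 UMIs or more (14 and 31 barcodes) Hspa8 was 956 and 1698 CPM, a ratio of 1.78 (1.36 to 2.35), Hspa5 370 and 760 CPM, a ratio of 2.05 (1.34 to 3.28), and Cryab 216 and 618 CPM, a ratio of 2.86 (1.66 to 5.35). Mature oligodendrocyte markers moved with them, from 8744 to 17732 CPM at 2000 UMIs or more and from 13725 to 14734 CPM below. The median Malat1 share of the deeper NFOs was 5.16% uninjured and 0.114% injured, and 70.1% of the Cryab UMIs of injured NFOs lay in 10 of 100 barcodes.

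In OPCs of at least 2000 UMIs (36 uninjured and 12 injured) Hspa8 at 1.70 (1.37 to 2.12), Hsp90aa1 at 1.57 (1.15 to 2.13) and Hsp90ab1 at 1.64 (1.31 to 2.06) were higher in the injured library. Their median depth was 3124 and 11093.5 UMIs. The shallower injured OPCs were 5 barcodes with 6398 UMIs in all, too few to read these genes.

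Among other chaperones of the cytosol, most oligodendrocyte ratios stayed within 2-fold. Of 28 co-chaperones and other HSP70 family genes, 26 had 50 UMIs in oligodendrocytes, of which 2 were at least 2-fold higher in the injured library and 0 lower, with a median log2 ratio of 0.21 against 0.05 for all genes. The intervals of 11 lay above 1 and those of 2 below it. Hspa2, an HSP70 known from the testis and myelinating cells, was 36.1 CPM uninjured and 153 CPM injured, a ratio of 4.24 (3.49 to 5.17). Bag3, a co-chaperone of HSP70 in autophagy, was 7.95 and 16.1 CPM, a ratio of 2.02 (1.23 to 3.33). The smallest ratios were those of the HSP90 co-chaperones Fkbp4 at 0.592 (0.485 to 0.719) and Ahsa1 at 0.786 (0.671 to 0.918). In NFOs 2 of 10 genes tested were 2-fold higher, Hspa4 at 2.62 (1.32 to 5.91) and Fkbp4 at 2.14 (0.915 to 6.12), and in OPCs 1 of 4, the J protein gene Dnaja1 at 2.87 (1.89 to 4.45).

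The ER list, chosen as the neighbours of Hspa5, had a higher median than all genes in oligodendrocytes, summed over barcodes of all depths. Of 21 genes of ER chaperones and the unfolded protein response, all tested there, 3 were at least 2-fold higher in the injured library and 0 lower, with a median log2 ratio of 0.39 against 0.05 for all genes. P4hb, a protein disulfide isomerase, was 83.9 CPM uninjured and 222 CPM injured, a ratio of 2.65 (2.31 to 3.05), and Ddit3, a transcription factor induced by ER stress and by the integrated stress response, 52.1 and 120 CPM, a ratio of 2.31 (1.93 to 2.77). The 2 smallest ratios of the list were those of Pdia6 at 0.703 (0.607 to 0.814) and Ppib, a prolyl isomerase, at 0.823 (0.749 to 0.904). In NFOs 1 of 12 tested was 2-fold higher, Manf at 2.36 (1.26 to 4.88), and Calr stood at 0.621 (0.462 to 0.845), while in OPCs 0 of 7 passed 2-fold, with Hsp90b1 at 1.66 (1.21 to 2.28). The list medians were near those of all genes in these types, at 0.20 against 0.20 in NFOs and 0.29 against 0.24 in OPCs.

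Most small heat shock protein genes beside Hspb1 and Cryab were too low to compare. Of 7 listed, all in the tables, 2 had 50 UMIs in oligodendrocytes and 0 in the other types. Hspb8, the partner of Bag3, was 4.58 CPM uninjured (19 UMIs) and 49.9 CPM injured (115 UMIs), a ratio of 10.9 (6.68 to 18.8), and Hspb11 stood at 0.745 (0.583 to 0.947).

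Genes of the heat shock factors and their regulators stayed within 2-fold in every type. In oligodendrocytes 7 of 8 were tested, with a median log2 ratio of -0.08. The factors themselves were low: Hsf1, the main heat shock factor, was 21.7 and 15.6 CPM (ratio 0.721, 0.476 to 1.07) and Hsf2 30.6 and 24.3 CPM (ratio 0.795, 0.570 to 1.10). Ubb, a polyubiquitin gene, was 1978 and 2856 CPM, a ratio of 1.44 (1.40 to 1.49), and stood at 1.23 in OPCs and 1.21 in NFOs. Of the TRiC chaperonin and prefoldin, 11 genes were tested in oligodendrocytes with 0 past 2-fold and a median log2 ratio of -0.10, the ends being Cct4 at 1.19 and Vbp1 at 0.673. In NFOs and OPCs Cct7 was 2-fold higher, at 2.04 (1.21 to 3.68) and 2.08 (1.15 to 3.82), of 11 and 5 genes tested. The mitochondrial chaperones had 0 of 8 past 2-fold in oligodendrocytes and a median log2 ratio of 0.23, with Hspd1, the mitochondrial HSP60, at 1.32 (1.16 to 1.499). In OPCs Hspd1 stood at 1.98 (1.26 to 3.14).

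**Figure D4:**
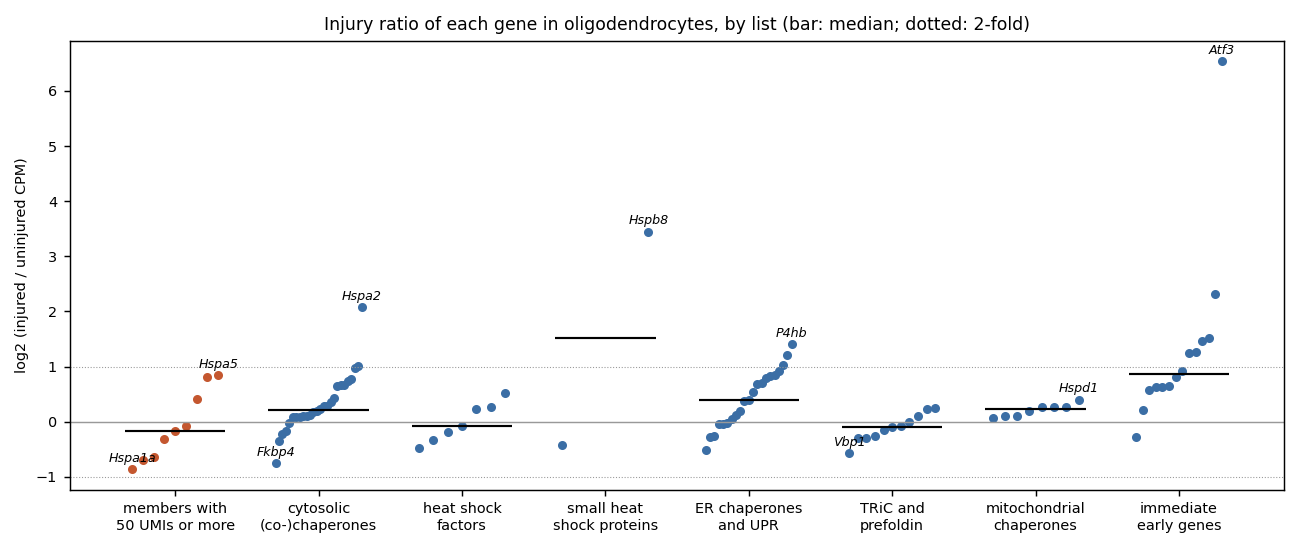
Log2 of the injured over the uninjured CPM in oligodendrocytes for each gene with at least 50 UMIs, by list (ER chaperones and UPR, the unfolded protein response), with the list median as a bar and 2-fold as dotted lines. The 9 members lie between the dotted lines, whereas Hspa2, Hspb8, P4hb and Atf3 lie above them.

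Immediate early genes, which dissociation of tissue can induce together with inducible HSP70, were higher in the injured library. Of 14 tested in oligodendrocytes 6 were at least 2-fold higher and 0 lower, with a median log2 ratio of 0.87, and their sum was 1919 CPM uninjured and 3947 CPM injured. Atf3 stood at 1.205 CPM uninjured and 112 CPM injured from 5 and 258 UMIs, and Socs3 at 40.5 and 201 CPM. The sum was 2252 and 6210 CPM in NFOs, where 7 of 9 genes were 2-fold higher, and 3741 and 6837 CPM in OPCs, where 4 of 8 were. In oligodendrocytes the sum also varied with depth, at 2078 and 4242 CPM in barcodes of 8000 UMIs or more, 1813 and 1488 CPM between 2000 and 4000 UMIs, and 1747 and 1971 CPM at matched depth. Its part in the values of Hspa1a and Hspa1b was not tested. Of 4 nuclear RNAs tested in oligodendrocytes 0 passed 2-fold, and Malat1 was 61001 CPM uninjured and 34163 CPM injured.

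Across single oligodendrocytes of at least 2000 UMIs (555 uninjured, 129 injured), the abundant chaperones varied together and also with depth, so the correlations are given as descriptions. Pearson's r of the NE of Hsp90aa1 and Hsp90ab1 was 0.61 uninjured and 0.54 injured, that of Hspa8 and Hsp90ab1 0.55 and 0.69, and that of Hspa8 and Cryab 0.52 and 0.66. With log depth, Hspa8 itself correlated at 0.45 and 0.62 and Cryab at 0.56 and 0.60. The genes closest to Hspa8 were Ubb (0.62), Fez1 (0.60) and Cnp (0.59) uninjured, and Ubb (0.73), Ywhaq (0.69) and Hsp90ab1 (0.69) injured. Those closest to Cryab were Stmn1, Tmsb4x and Dbi uninjured, at 0.66 to 0.67, and Csrp1, Ubb and Rnf7 injured, at 0.75 to 0.77.

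The less abundant genes had weaker neighbours. Closest to Hspa5 were the ER chaperone Calr (0.28), Aplp1 (0.26) and Hsp90aa1 (0.25) uninjured, and Pdia3 (0.51), an ER disulfide isomerase, Bzw1 (0.49) and Usp8 (0.46) injured, where Hspa5 correlated with log depth at 0.43. Closest to Hspa1a were Hspa1b (0.30), Fos (0.30) and Jun (0.27) uninjured, and Naxe (0.46), Mapk9 (0.45) and Babam1 (0.43) injured, where 23 of 293 oligodendrocytes held any Hspa1a.

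Together the 10 genes took 0.662% of all UMIs of uninjured oligodendrocytes and 0.650% of injured ones. The share was 0.312% and 0.497% in OPCs and 0.399% and 0.557% in NFOs. A single barcode held between 0 and 1.91% of its UMIs in these genes in uninjured oligodendrocytes, with a median of 0.530%, and between 0 and 3.84% in injured ones, with a median of 0.506%. The most members found in 1 barcode was 9, in oligodendrocytes of both libraries.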

How the data were processed

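Single cells of optic nerve were captured with the 10x Chromium system, 1 library per condition. The authors ran Cell Ranger 1.3 and bcl2fastq 2.17.1.14 (per the labels, mm10), kept cells with at most 20% mitochondrial content, at least 200 genes and at most 150000 UMIs (their step against doublets, so no doublet caller was run), subsampled and typed them, and deposited natural log values from Seurat 4.0.3, the normalized expression (NE), as ln(1 + 10000 × UMIs of the gene / UMIs of the barcode). The authors' types were used. Whole UMI counts were recovered from the deposited values (within 0.001 in 100% of barcodes), summed by type and library, and given as CPM with exact Poisson intervals, shares with exact Clopper-Pearson intervals and ratios with exact conditional intervals (scipy 1.17.1). No test was run, since each condition has 1 library. In simulated tables where 200 genes differed 4-fold, the true ratio lay inside 95.6% of intervals for OPCs, 96.2% for NFOs and 95.8% for oligodendrocytes. The simulated counts had counting error only, which is what the intervals assume, and no crowding of UMIs in single barcodes. This checks the calculation and cannot show how well the intervals hold for the real barcodes. The members, the 16 gene lists and the depth ranges were chosen with earlier results of these data known. Named beyond the members are, per list, up to 2 genes at each end of the injury ratio, and the 3 closest genes of 4 members. Alternatives changed the barcode filter, weighting, scaling, depth, Malat1 content, richest barcode, UMI minimum and fold. Other cell types were not analysed here.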

Additional observations from a re-analysis of the deposited data

Results flagged for a closer look

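Some injured-to-uninjured ratios lay on opposite sides of 1 in different types, with intervals that do not span 1. Hsp90aa1 stood at 1.63 in OPCs and 0.807 in oligodendrocytes. Hsp90ab1 stood at 1.71 in OPCs and 1.29 in NFOs but 0.893 in oligodendrocytes. As a mean over barcodes it was 1593 CPM in uninjured and 1616 CPM in injured oligodendrocytes. Cryab stood at 1.88 in NFOs and 0.944 in oligodendrocytes. The difference between the types was not tested, because each condition is 1 library.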

How the results depend on the processing

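The limits are those of 1 library per condition, of unequal depth between the libraries and of few OPCs and NFOs. Of 195 recomputed injury ratios of single members 10 changed sign where the main interval did not span 1. Of the rest 150 stayed within the main counting interval and 35 moved outside it. Of 243 recomputed type ratios 201 stayed within it, 42 moved outside it and 0 changed sign where the main interval did not span 1. Sign changes of ratios whose main interval spans 1 were not counted as such. The cause was not tested where none is named.

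Thinned to 500 UMIs, which weights barcodes equally, the injury log2 ratio was -0.28 for Hsp90aa1 in OPCs, -0.087 for Hspa8 and -0.49 for Hspa5 in NFOs, and in oligodendrocytes 0.93 for Dnajb1 (from 4 and 6 UMIs), -1.65 for Hsph1 (2 and 18 UMIs) and 0.062 for Hsp90ab1, which was 0.020 as a mean over barcodes. In oligodendrocytes under 8000 UMIs it was -0.37 for Hspa8 and -0.024 for Hspa5, and at matched depth -1.02 for Hspa8.

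Members 2-fold higher after injury were 0 in each type. For the alternative settings below, the share of all genes past the fold was counted only at matched depth. There 16.9% of 4639 genes were at least 2-fold lower. The other counts show only how the members moved and cannot be set against a general rate. In OPCs they were 1 (Hspa5) as a mean over barcodes and 3 at 1.5-fold, and 2-fold lower 1 (Dnajb1) with no minimum. In NFOs they were 1 (Hspa5) under 8000 UMIs, 1 without the richest barcode of the gene, and 2 (Hspa5, Cryab) with Malat1 at 0.5% or more or at 1.5-fold. In oligodendrocytes they were 2 (Hsph1, Hspa5) at 1.5-fold, and those lower were 1 (Hspa1a) under a stricter filter (500 genes, 10% mitochondrial UMIs), 1 (Hspa1b) as a mean over barcodes, 3 (Hspa1a, Hspa1b, Dnajb1) at 1.5-fold and 5 at matched depth.

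For oligodendrocytes over OPCs in the uninjured library, those higher went from 4 to 2 under 8000 UMIs or when thinned, and those lower from 2 to 1 under the stricter filter, as a mean over barcodes, under median scaling, without mitochondrial UMIs, under 8000 UMIs, without the richest barcode or at 200 UMIs, and to 0 when thinned. In the injured library those higher went from 2 to 1 as a mean over barcodes, thinned, without the richest barcode or at 200 UMIs. Those lower went from 1 to 3 as a mean over barcodes, 2 at 1.5-fold, and 0 when thinned, without the richest barcode or at 200 UMIs. Over NFOs in the uninjured library, those higher went from 2 to 4 as a mean over barcodes or at 1.5-fold and 1 when thinned, and those lower from 0 to 1 (Hspa5) when thinned or at 1.5-fold. In the injured library those higher went from 2 to 0 under 8000 UMIs or when thinned, and those lower from 0 to 2 (Hspa8, Hspa5) under 8000 UMIs and to 1 with Malat1 at 0.5% or more (Hspa1a), with no minimum (Hspb1) or at 1.5-fold (Hspa5).

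No paired analysis was possible because each group has 1 library. Leaving out a replicate could not be done for the same reason.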
